A study of Homo sapiens with 2 samples.

Results

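Chromosome 18 is represented on the Human Transcriptome Array 2.0 by transcript clusters, probe groups that stand for 1 gene or transcribed stretch each, whose IDs start with TC18. The clusters described here were chosen by that start of the ID, which gave 1001 of the 67528 clusters in the deposited table. Of these, 334 carried 1 gene symbol, 657 carried none and 10 carried several. Total RNA of 2 cultures was measured on 1 array each. The first culture is labelled FaDuCR, a cetuximab-resistant line, and the second is labelled as parental FaDu. FaDu is a cell line grown from a squamous carcinoma of the human hypopharynx, and cetuximab is an antibody against the epidermal growth factor receptor. How resistance was obtained, whether the resistant line is 1 clone and whether the drug was present at harvest are not stated in the labels.

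Each group has a single array and therefore no replicate spread, so every difference below is a size, given as the log2 value on the resistant array minus that on the parental array, with no test. The difference chosen for description is also the readout, so the values describe these arrays and support nothing beyond them. Culture, passage, array and resistance cannot be told apart, and fewer cells of a type and less RNA per cell cannot be told apart either. A cluster was counted when at least 1 array lay above a background level. That level was the 95th percentile of the values of 364 genes of olfactory receptors, 5.03 on the resistant and 5.09 on the parental array. A cluster at background on 1 array was counted only through the other array, which set the direction of its difference. The SD of the differences over those genes was 0.42 on the log2 scale, a measure of scatter among dim clusters that cannot stand for replicate error. Of 6 measured squamous markers, 4 lay above background on the resistant array and 6 on the parental array, and the 2 missing on the resistant array were DSC3 and DSG3, members of the chromosome described here. KRT14 stood at 5.17 in resistant and 11.39 in parental cells. All 5 simple epithelial markers were above background on both arrays, and 0 of 3 blood cell markers were on either. Of 5 fibroblast markers, only COL1A1 was above background, at 5.26 on the resistant and 5.22 on the parental array. Of 3 endothelial markers, 2 were above background on the resistant and 1 on the parental array.

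Chromosome 18 carries several gene groups that matter for squamous epithelium and its cancers. The desmosomal cadherins, which join keratinocytes to each other, lie in a cluster on its long arm. Farther out on that arm lie SMAD2, SMAD4 and SMAD7, which carry or restrain signals of the TGF-beta family, the tumour suppressor candidate DCC, the apoptosis regulators BCL2 and PMAIP1, and a cluster of clade B serpins, which inhibit proteases. Loss of the outer long arm is a common event in carcinomas of several organs. FaDu is known to have lost SMAD4, as background to the labels. SMAD4 stood at 10.81 on the array labelled resistant and at 4.60, below background, on the array labelled parental. The value on the array labelled resistant goes against that knowledge of the line, and whether both cultures are FaDu was not tested.

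Promoters of 7 protein-coding genes are shown because these genes were at background on 1 array and at least 8-fold above it on the other. The sequences are those of RefSeq on the assembly GRCh38.p14, from 250 bases before to 50 bases after the gene's start, and read 5′ to 3′ along the gene. Capitals mark matches, on either strand, to the GC box GGGCGG, the TATA box TATAAA or the AP-1 element TGANTCA, where N is any base and the motifs do not contain one another. ME2, SMAD4, TMX3 and LIPG were bright on the resistant array:
ME2 (chr18:50878868-50879167, + strand): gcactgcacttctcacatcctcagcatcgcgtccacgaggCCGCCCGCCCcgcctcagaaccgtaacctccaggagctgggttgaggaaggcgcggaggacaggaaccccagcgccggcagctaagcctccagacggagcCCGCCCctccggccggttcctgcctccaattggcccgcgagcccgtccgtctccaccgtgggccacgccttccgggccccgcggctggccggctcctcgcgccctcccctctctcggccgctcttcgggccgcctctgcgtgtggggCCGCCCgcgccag
SMAD4 (chr18:51029963-51030262, + strand): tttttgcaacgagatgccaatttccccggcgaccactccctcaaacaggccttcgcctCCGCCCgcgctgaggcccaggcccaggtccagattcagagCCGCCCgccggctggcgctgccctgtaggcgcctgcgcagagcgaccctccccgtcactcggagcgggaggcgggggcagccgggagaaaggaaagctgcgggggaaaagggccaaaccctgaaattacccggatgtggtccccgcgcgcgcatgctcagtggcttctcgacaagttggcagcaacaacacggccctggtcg
TMX3 (chr18:68715059-68715358, - strand): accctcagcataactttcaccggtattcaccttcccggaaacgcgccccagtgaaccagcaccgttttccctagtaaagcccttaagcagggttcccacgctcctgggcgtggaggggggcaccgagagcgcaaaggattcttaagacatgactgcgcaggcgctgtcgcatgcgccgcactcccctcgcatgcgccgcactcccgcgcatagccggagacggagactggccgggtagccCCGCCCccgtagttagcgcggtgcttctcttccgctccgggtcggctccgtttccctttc
LIPG (chr18:49561807-49562106, + strand): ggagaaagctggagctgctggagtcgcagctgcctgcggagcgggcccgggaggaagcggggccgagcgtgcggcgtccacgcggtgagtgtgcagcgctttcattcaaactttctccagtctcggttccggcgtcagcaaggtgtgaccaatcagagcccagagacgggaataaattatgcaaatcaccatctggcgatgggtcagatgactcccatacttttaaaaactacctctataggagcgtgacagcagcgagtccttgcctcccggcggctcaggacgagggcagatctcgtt
DSC3, DSG3 and SERPINB13 were bright on the parental array:
DSC3 (chr18:31042693-31042992, - strand): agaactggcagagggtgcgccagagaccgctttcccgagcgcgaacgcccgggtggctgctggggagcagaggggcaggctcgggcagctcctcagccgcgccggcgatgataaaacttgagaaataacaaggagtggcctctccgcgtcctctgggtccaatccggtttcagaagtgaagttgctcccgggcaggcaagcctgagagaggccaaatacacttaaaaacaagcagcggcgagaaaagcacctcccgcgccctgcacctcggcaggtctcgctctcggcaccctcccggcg
DSG3 (chr18:31447491-31447790, + strand): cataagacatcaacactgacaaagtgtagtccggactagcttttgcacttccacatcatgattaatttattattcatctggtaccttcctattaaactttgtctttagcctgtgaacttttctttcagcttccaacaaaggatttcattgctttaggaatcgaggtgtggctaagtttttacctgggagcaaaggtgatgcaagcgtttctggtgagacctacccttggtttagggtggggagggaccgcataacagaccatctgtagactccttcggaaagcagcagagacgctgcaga
SERPINB13 (chr18:63587093-63587392, + strand): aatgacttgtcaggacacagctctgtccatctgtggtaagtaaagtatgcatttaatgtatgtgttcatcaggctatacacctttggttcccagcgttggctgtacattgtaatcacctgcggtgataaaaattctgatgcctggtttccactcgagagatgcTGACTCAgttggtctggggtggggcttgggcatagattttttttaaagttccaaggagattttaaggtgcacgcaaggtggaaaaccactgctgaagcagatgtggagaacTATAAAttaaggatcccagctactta

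The promoters of the genes bright on the resistant array held 35 CpG dinucleotides in ME2, 28 in SMAD4, 30 in TMX3 and 23 in LIPG. Those of the genes bright on the parental array held 25 in DSC3, 6 in DSG3 and 4 in SERPINB13. GC boxes were found at 4 places in ME2, 2 in SMAD4 and 1 in TMX3, and at 0 in LIPG, DSC3, DSG3 and SERPINB13. SERPINB13 alone among these 7 held a TATA box and an AP-1 element, 1 of each. Over all protein-coding genes of the chromosome above background, the contrast was small. The median number of CpG dinucleotides was 28 in 58 promoters of genes at least 2-fold higher on the resistant array, 25 in 15 promoters of genes at least 2-fold lower, and 33 in 72 promoters of genes within 2-fold. A GC box occurred in 69.0% of promoters of higher genes, 66.7% of those of lower genes and 80.6% of those within 2-fold, against 58.3% of 15842 promoters of protein-coding genes genome-wide. A TATA box occurred in 10.3% of promoters of higher genes, 13.3% of those of lower genes and 2.78% of those within 2-fold, against 9.75% genome-wide. An AP-1 element occurred in 5.17% of promoters of higher genes, 6.67% of those of lower genes and 4.17% of those within 2-fold, against 5.70% genome-wide. These are matches of letters in a fixed window and not evidence of binding.

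Named clusters of chromosome 18 leaned strongly to higher values on the resistant array. Of the 334 named clusters, 192 were above background on at least 1 array. Among these, 70 (36.5%) were at least 2-fold higher on the resistant array, where the share over all named clusters of the array was 13.0%. Lower by 2-fold or more were 17 (8.85%), where the share over all named clusters was 12.5%. Their median difference was 0.425 log2 units, against -0.03 for 14255 named clusters of the other chromosomes. At 8-fold, 17 of the 192 named clusters were higher and 4 lower, against 227 higher and 163 lower of 14255 on the other chromosomes. The middle 50% of the differences, between the quartiles, ran from -0.24 to 1.54, against -0.53 to 0.49 on the other chromosomes. Closest to the 2-fold threshold lay SMAD2 (1.0), ZNF519 (-1.03) and MPPE1 (-1.04) on its outer side and EPG5 (0.99), USP14 (0.98) and SNORD58A (0.95) on its inner side.

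**Figure D1:**
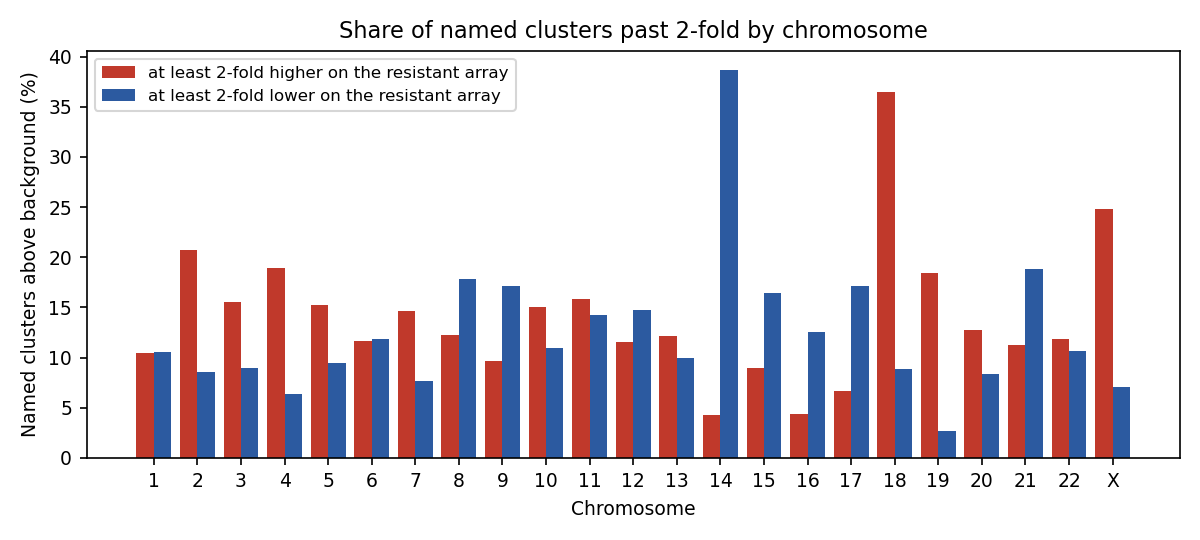
Share of named clusters above background (percent, vertical axis) that were at least 2-fold higher (red) or at least 2-fold lower (blue) on the resistant array than on the parental array, for chromosomes 1 to 22 and X, with 1 array per group. Chromosome 18 has the tallest red bar, 36.5%, and chromosome 14 the tallest blue bar, 38.7%.

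Among the 23 chromosomes compared, chromosome 18 had the highest median difference and the largest share of clusters at least 2-fold higher. The next largest share was 24.8% on chromosome X, and the next highest median was 0.25 on chromosome 19. Chromosome 14 lay at the other end, with 38.7% of its named clusters at least 2-fold lower and a median of -0.62. Chromosome 18 is gene-poor, with 192 named clusters in these counts against 1319 on chromosome 1, so a few neighbouring genes weigh more in its share.

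The higher values were unevenly spread along the chromosome. For position, 311 of the 334 named clusters matched a RefSeq gene of chromosome 18, and 181 genes above background were put in the order of their starts. The 23 named clusters without a match were left out of this order. Of these, 11 were above background, with 0 higher and 1 lower by 2-fold or more and a median of -0.13. The chromosome was divided at ROCK1, the first long-arm gene in that order, and at 2 further places chosen after the values were seen, so that the division is a description. On the short arm, ROCK1P1 to MIR3156-2, 9 of 47 genes were higher and 5 lower by 2-fold or more, with a median of 0.22. On the proximal long arm, ROCK1 to HDHD2, 11 of 57 were higher and 10 lower, with a median of -0.01. On the middle long arm, IER3IP1 to CYB5A, 45 of 60 were higher and 1 lower, with a median of 1.73. On the distal long arm, CNDP2 to PARD6G, 5 of 17 were higher and 0 lower, with a median of 0.41. The shares over all named clusters of the array were 13.0% higher and 12.5% lower. In the middle section, 57 of 60 genes had a positive difference and 2 a negative one. With its 45 genes at background on both arrays included, the median over 105 genes was 0.59. Of the 60 genes, 9 (15.0%) were at background on the parental array, against 5.33% of named clusters on the other chromosomes. These 9 are among the higher genes and were counted only through the resistant array, so the filter set their direction. Likewise, 1 gene was counted only through the parental array.

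**Figure D2:**
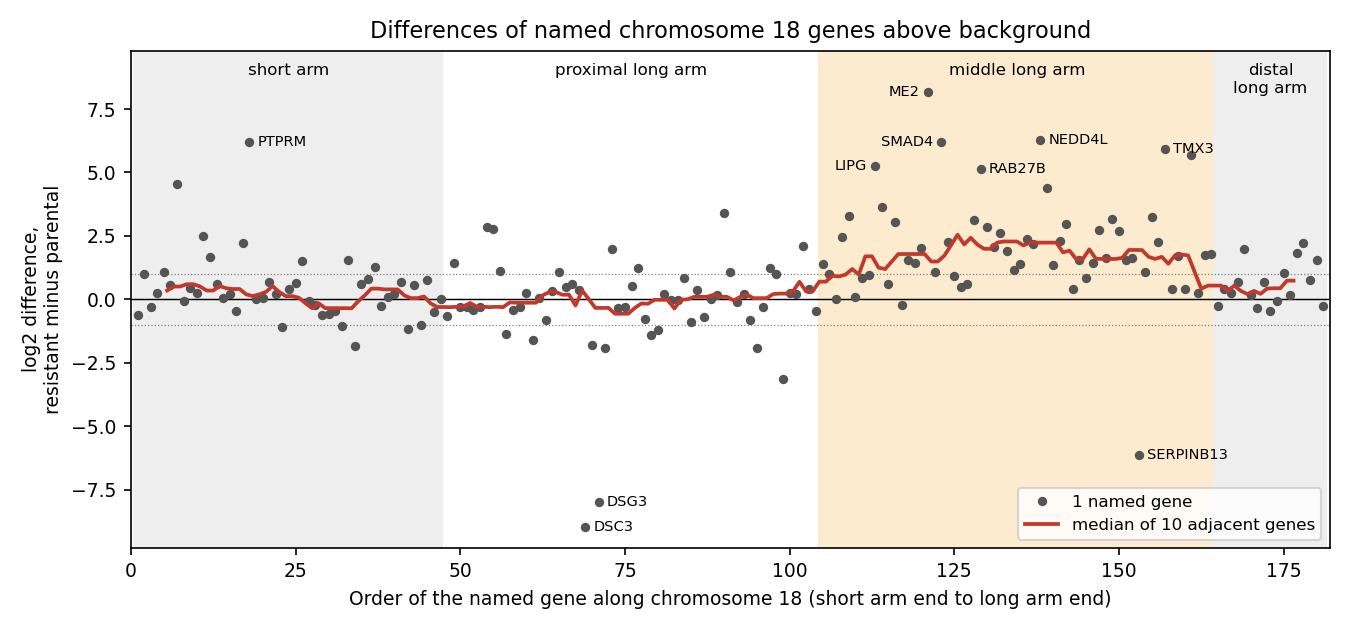
Log2 difference, resistant minus parental, of 181 named genes above background (points, vertical axis) by their order along chromosome 18 (horizontal axis), with the median of 10 adjacent genes as a red line and dotted lines at 2-fold. The line stays near 0 over the short arm and proximal long arm, reaches 2.545 in the middle long arm and drops again in the distal long arm.

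The levels in the middle long arm differed between the arrays. Over its 60 genes the median log2 value was 9.94 on the resistant and 7.07 on the parental array. Over the named clusters of the other chromosomes it was 7.79 on the resistant and 7.77 on the parental array. On the proximal long arm the median was 8.49 on the resistant and 8.44 on the parental array, and on the short arm it was 8.99 on the resistant and 9.04 on the parental array. Brightness depends on the probes of a cluster, so these medians compare the arrays over the same clusters, not the sections with each other.

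The longest run of adjacent ordered genes with positive differences held 35 genes, from MBD1 to SERPINB5, and 30 of them were at least 2-fold higher. The smallest difference in this run was 0.41, in PMAIP1, and the median was 2.02. On the 22 other chromosomes the longest such run held 26 genes, on chromosome 19, where 919 genes were ordered. The pseudogene SDCCAG3P1, left out for want of a RefSeq match, stood at 6.16 on the resistant and 6.57 on the parental array. Its ID number lies between those of LMAN1 and PIGN, so placed by that number it would split the run of chromosome 18. The runs were not recounted with unmatched clusters, so the first rank holds only for matched genes. The highest median over 10 adjacent genes on chromosome 18 was 2.545, from ME2 to CCDC68, and no other chromosome had a higher one, with chromosome X next at 2.39. In that window ME2, SMAD4 and CCDC68 were counted only through the resistant array. Without ME2, ELAC1 and SMAD4 the highest median on chromosome 18 was 2.28, below that of chromosome X. With no filter on dim clusters it was 1.99, and the other chromosomes were not recomputed in that way. In the lower direction other chromosomes went further. The longest run of negative differences held 38 genes on chromosome 14 and 33 on chromosome 11. Their lowest medians over 10 adjacent genes were -3.41 on chromosome 14 and -2.675 on chromosome 11. Differences of adjacent genes on chromosome 18 had a Pearson correlation of 0.301 over 180 pairs, and of 0.30 over 172 pairs without the desmosomal cadherins and clade B serpins. That correlation ranked 6 among the 23 chromosomes, and adjacent genes share arrays and are not independent replicates.

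The genes around SMAD4 held the largest positive difference. ME2, the mitochondrial malic enzyme that makes pyruvate from malate, stood at 12.28 on the resistant and 4.12 on the parental array. It was bright on the resistant array and below background on the parental array, at least 146-fold higher. SMAD4, the shared partner of receptor-activated SMAD proteins, was at least 52.9-fold higher. ELAC1, a tRNA-processing endonuclease whose gene lies between ME2 and SMAD4, stood at 6.17 in resistant and 5.10 in parental cells. Its parental value was just above background. On the near side of ME2, the methyl-CpG-binding gene MBD1 stood at 8.88 on the resistant and 7.33 on the parental array. CXXC1, a subunit of a histone H3 methyltransferase complex, stood at 8.30 in resistant and 6.87 in parental cells. SKA1, which couples kinetochores to microtubules, stood at 10.27 in resistant and 8.25 in parental cells. These genes were above background on both arrays and between 1.43 and 2.02 log2 units higher on the resistant array. Beyond SMAD4, the RNA-binding ubiquitin ligase gene MEX3C stood at 8.20 on the resistant and 5.96 on the parental array. MAPK4, MRO and DCC were at background on both arrays, between 3.78 and 3.97. Of the 10 genes listed from MBD1 to DCC, 7 were above background and all 7 were at least 2-fold higher. The share was 13.0% over all named clusters and 36.5% over those of the chromosome. ME2 and SMAD4 were counted only through the resistant array, so the filter set their direction. Without ME2, ELAC1 and SMAD4 the median of the middle long arm was 1.72, against 1.73 with them.

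**Figure D3:**
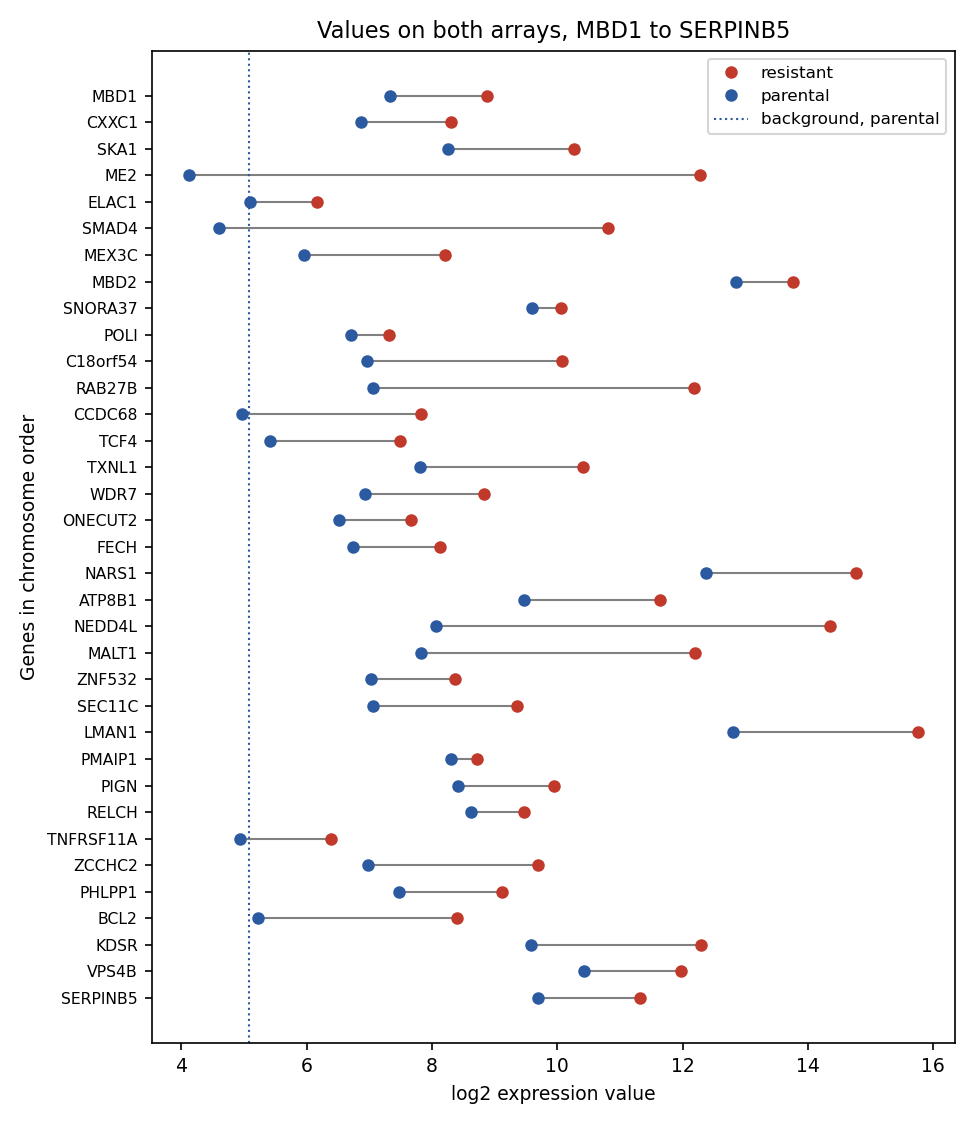
Log2 expression values (horizontal axis) of the 35 genes from MBD1 to SERPINB5 in chromosome order (vertical axis), with the resistant array in red, the parental array in blue and a dotted line at the parental background level. Every red point lies to the right of its blue point. Blue points left of the dotted line are those of ME2 at 4.12, SMAD4 at 4.60, TNFRSF11A at 4.94 and CCDC68 at 4.97.

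From MBD2 outward the run continued with genes of varied roles. MBD2, a reader of methylated DNA, stood at 13.76 on the resistant and 12.85 on the parental array, and the small nucleolar RNA SNORA37 at 10.06 in resistant and 9.59 in parental cells. POLI, a translesion DNA polymerase, stood at 7.32 in resistant and 6.71 in parental cells. These 3 were higher by less than 2-fold. C18orf54 stood at 10.07 in resistant and 6.96 in parental cells and CCDC68, a coiled-coil protein gene, at 7.82 in resistant and 4.97 in parental cells, so CCDC68 was at background on the parental array. RAB27B, a small GTPase of secretory vesicle docking, stood at 12.18 in resistant and 7.06 in parental cells and was 34.8-fold higher. TCF4, a basic helix-loop-helix transcription factor, stood at 7.49 in resistant and 5.41 in parental cells. TXNL1, a thioredoxin-like protein of the proteasome, stood at 10.41 in resistant and 7.80 in parental cells. Its neighbour WDR7 stood at 8.83 in resistant and 6.93 in parental cells, and the transcription factor gene ONECUT2 at 7.67 in resistant and 6.52 in parental cells.

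Metabolic genes followed the same direction. FECH, which inserts iron into haem, stood at 8.13 on the resistant and 6.74 on the parental array. NARS1, the cytosolic asparaginyl-tRNA synthetase, stood at 14.77 in resistant and 12.38 in parental cells. ATP8B1, a phospholipid flippase of the apical membrane, stood at 11.63 in resistant and 9.46 in parental cells. Each of them was above background on both arrays. ACAA2, the last enzyme of mitochondrial fatty acid oxidation, stood at 10.70 in resistant and 7.08 in parental cells and was 12.3-fold higher. LIPG, the endothelial lipase gene, stood at 9.92 in resistant and 4.67 in parental cells, at background on the parental array, and was at least 28.5-fold higher. KDSR, an enzyme of sphingolipid synthesis, stood at 12.29 in resistant and 9.58 in parental cells. CYB5A, cytochrome b5, stood at 11.21 in resistant and 9.42 in parental cells, and the mitochondrial import gene TIMM21 at 10.93 in resistant and 9.19 in parental cells. Of 16 measured mitochondrial and metabolic genes of chromosome 18, all above background, 10 were higher and 0 lower by 2-fold or more, against 13.0% and 12.5% over all named clusters and 36.5% and 8.85% over those of the chromosome, with a median of 1.64. This list was made with earlier results of these data known. Some members elsewhere on the chromosome differed by less than 2-fold, such as NDUFV2, a complex I subunit on the short arm, at 9.66 in resistant and 9.47 in parental cells, ATP5F1A, the ATP synthase alpha subunit, at 12.58 in resistant and 12.35 in parental cells, and the cholesterol transporter NPC1 at 10.33 in resistant and 10.65 in parental cells. IMPA2, an inositol monophosphatase gene of the short arm, stood at 10.58 in resistant and 9.04 in parental cells, and the phosphatidate phosphatase gene LPIN2 at 7.19 in resistant and 4.69 in parental cells, so that LPIN2 was at background on the parental array.

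Several genes of protein turnover and signalling stood out in the same section. NEDD4L, a ubiquitin ligase that limits epithelial sodium channels, stood at 14.35 on the resistant and 8.07 on the parental array. Both values were above background, and the resistant one was 77.7-fold higher, the largest fold on the chromosome that is not a lower bound. MALT1, a paracaspase of NF-kB signalling, stood at 12.20 in resistant and 7.83 in parental cells and was 20.7-fold higher. TNFRSF11A, the receptor RANK, stood at 6.38 in resistant and 4.94 in parental cells, at background on the parental array. BCL2, which restrains apoptosis, stood at 8.40 in resistant and 5.23 in parental cells, with a parental value just above background. PMAIP1, the proapoptotic gene of NOXA, stood at 8.72 in resistant and 8.31 in parental cells, a difference of 0.41. SOCS6, a suppressor of cytokine signalling, stood at 9.33 in resistant and 8.94 in parental cells. PHLPP1, a phosphatase of AKT, stood at 9.12 in resistant and 7.48 in parental cells. Of 6 measured apoptosis and NF-kB genes, 3 were at least 2-fold higher and 0 lower, against 13.0% and 12.5% over all named clusters and 36.5% and 8.85% over those of the chromosome, with a median of 0.925.

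Trafficking genes of the section were higher as well. MYO5B, a myosin motor of recycling endosomes, stood at 9.68 on the resistant and 6.63 on the parental array. DYM, a Golgi-associated protein gene, stood at 12.28 in resistant and 8.99 in parental cells, 9.78-fold higher. LMAN1, a cargo receptor between the endoplasmic reticulum and the Golgi, stood at 15.76 in resistant and 12.80 in parental cells. The signal peptidase subunit gene SEC11C stood at 9.35 in resistant and 7.05 in parental cells. VPS4B, an ATPase that disassembles ESCRT filaments, stood at 11.98 in resistant and 10.43 in parental cells. These 5 genes were above background on both arrays, with every resistant value above the parental one. TMX3, a thioredoxin-related protein of the endoplasmic reticulum, stood at 10.48 in resistant and 4.56 in parental cells, at background on the parental array, and was at least 42.1-fold higher. Of the 18 listed trafficking and cytoskeletal genes of the chromosome, 16 were above background, 8 higher and 1 lower by 2-fold or more, against 13.0% and 12.5% over all named clusters and 36.5% and 8.85% over those of the chromosome. Their median was 0.845. The lower one was TUBB6, a beta-tubulin of the short arm, at 9.02 in resistant and 10.86 in parental cells.

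The SMAD genes were all higher on the resistant array. SMAD2, a receptor-activated SMAD, stood at 11.62 on the resistant and 10.62 on the parental array. SMAD7, the inhibitory SMAD, stood at 6.95 in resistant and 4.51 in parental cells and was at background on the parental array. PIAS2, a SUMO ligase that binds transcription factors, stood at 10.03 in resistant and 7.92 in parental cells. On the short arm, the SMAD corepressor gene TGIF1 stood at 7.71 in resistant and 7.51 in parental cells, and TWSG1, an extracellular modulator of bone morphogenetic proteins, at 10.36 in resistant and 9.97 in parental cells. Those short-arm genes differed by less than 2-fold. LDLRAD4 and ZNF521 were at background on both arrays. Of the 8 measured genes of this list, 6 were above background, 4 were at least 2-fold higher and 0 lower, against 13.0% and 12.5% over all named clusters and 36.5% and 8.85% over those of the chromosome. The median over the 6 was 1.56.

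The desmosomal cadherins ran the other way on the proximal long arm. DSC3, desmocollin 3 of basal keratinocytes, stood at 4.42 on the resistant and 13.40 on the parental array. DSG3, desmoglein 3, stood at 4.19 in resistant and 12.18 in parental cells. On the resistant array both lay at background, although bright on the parental one, which makes DSC3 lower by at least 330-fold and DSG3 by at least 142-fold. The broadly expressed members differed less. DSC2 stood at 9.22 in resistant and 11.04 in parental cells and DSG2 at 12.85 in resistant and 14.76 in parental cells, 3.53-fold and 3.76-fold lower. DSC1, DSG1 and DSG4, which mark upper or hair epithelium, were at background on both arrays, between 3.76 and 4.27. So 4 of 7 measured members were above background and all 4 were at least 2-fold lower. The share was 12.5% of all named clusters and 8.85% of those of the chromosome. DSC3 and DSG3 were counted only through the parental array, so the filter set their direction. The neighbours of the desmosomal cadherins were not lower throughout. CDH2, the classical N-cadherin gene just before DSC3 in the order, stood at 7.25 in resistant and 6.87 in parental cells, and B4GALT6, a galactosyltransferase gene just after DSG2, at 7.90 in resistant and 5.93 in parental cells.

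**Figure D4:**
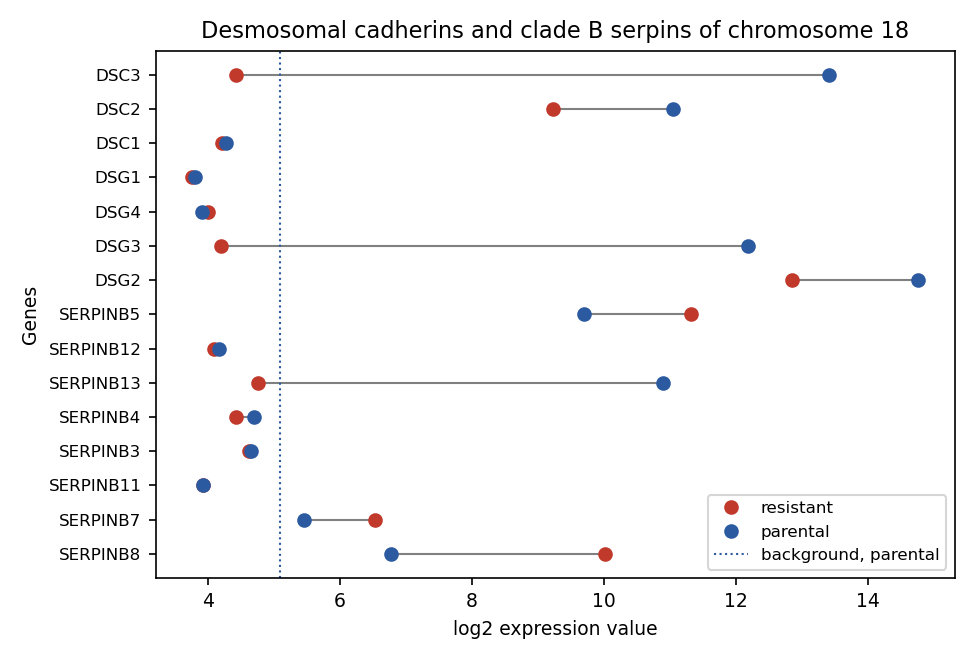
Log2 expression values (horizontal axis) of 7 desmosomal cadherins and 8 clade B serpins (vertical axis), with the resistant array in red, the parental array in blue and a dotted line at the parental background level. DSC3, DSG3 and SERPINB13 have red points left of the line and blue points beyond 10, while SERPINB5, SERPINB7 and SERPINB8 have the red point on the right.

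The clade B serpins lie inside the section of higher values and were divided. SERPINB5, maspin, stood at 11.32 on the resistant and 9.69 on the parental array, SERPINB8, an inhibitor of furin-like proteases, at 10.02 in resistant and 6.77 in parental cells, and SERPINB7 at 6.53 in resistant and 5.45 in parental cells. SERPINB13, also called hurpin, an inhibitor of lysosomal cysteine proteases, stood at 4.76 in resistant and 10.89 in parental cells, which puts its resistant value at background and makes it lower by at least 57.9-fold. It was the only gene of the middle long arm at least 2-fold lower. SERPINB3, SERPINB4, SERPINB11 and SERPINB12 were at background on both arrays, and the near-identical SERPINB3 and SERPINB4 may share probe signal. Of 8 measured members, 4 were above background, and of these 3 were higher and 1 lower by 2-fold or more, against 13.0% and 12.5% over all named clusters and 36.5% and 8.85% over those of the chromosome. SERPINB2 and SERPINB10 are not analysed here.

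The lowest median over 10 adjacent genes was -0.57, shared by 3 overlapping windows that start at DSC3, DSC2 and DSG3. In the first of them, DSC3 to MAPRE2, the members besides the cadherins were B4GALT6, the trafficking gene TRAPPC8 (9.78 on the resistant and 10.14 on the parental array), the ubiquitin ligase gene RNF138 (9.13 in resistant and 9.45 in parental cells), the pseudogene WBP11P1 (5.79 in resistant and 5.27 in parental cells), DTNA, the gene of dystrobrevin alpha (5.60 in resistant and 4.37 in parental cells), and MAPRE2, a microtubule end-binding protein gene (7.99 in resistant and 8.77 in parental cells). Apart from the 4 cadherins, no gene in that window was 2-fold lower. The other windows also hold genes just beyond MAPRE2, where the zinc finger genes ZNF397 (5.38 in resistant and 6.79 in parental cells) and ZSCAN30 (5.16 in resistant and 6.39 in parental cells) were at least 2-fold lower, while ZNF24, 2 places beyond ZSCAN30, stood at 9.81 in resistant and 9.82 in parental cells.

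Large differences also occurred outside the middle long arm, some of them beside genes that differed little. PTPRM, a receptor tyrosine phosphatase of cell contacts on the short arm, stood at 11.28 on the resistant and 5.09 on the parental array. Its parental value was just above background, and the fold was 73.0. RAB12, a small GTPase gene 2 places farther along, stood at 11.79 in resistant and 11.73 in parental cells. MOCOS, which activates the molybdenum cofactor of xanthine dehydrogenase, stood at 11.37 in resistant and 7.96 in parental cells, beside ELP2, an Elongator subunit gene, at 10.14 in resistant and 9.96 in parental cells. GATA6, a transcription factor of endoderm, stood at 9.31 in resistant and 6.47 in parental cells, and CABLES1, a cyclin-dependent kinase substrate linker gene, at 7.37 in resistant and 4.58 in parental cells. PSTPIP2, an actin-associated F-BAR protein gene, stood at 4.27 in resistant and 7.41 in parental cells, at background on the resistant array. The kinase gene RIOK3 stood at 10.72 in resistant and 12.10 in parental cells, CABYR, a calcium-binding protein gene, at 6.07 in resistant and 7.68 in parental cells, and the noncoding transcript KC6 at 4.56 in resistant and 6.49 in parental cells. The pseudogene NF1P5, which has no RefSeq match here, stood at 7.74 in resistant and 9.47 in parental cells and may share probe signal with related sequences.

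Cell-cycle and chromosome genes included members from every section. Of 16 measured, all above background, 7 were at least 2-fold higher and 1 lower, against 13.0% and 12.5% over all named clusters and 36.5% and 8.85% over those of the chromosome. The median was 0.84. TYMS, thymidylate synthase on the short arm, stood at 12.28 on the resistant and 11.21 on the parental array, and NDC80, a kinetochore gene of the same arm, at 12.19 in resistant and 11.76 in parental cells. CEP192, a centrosomal scaffold gene, was the lower one, at 9.76 in resistant and 10.95 in parental cells. RTTN, a centriole assembly gene of the middle long arm, stood at 8.98 in resistant and 7.26 in parental cells. CTDP1, a phosphatase of RNA polymerase II on the distal long arm, stood at 8.77 in resistant and 7.72 in parental cells.

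Of a list of 13 measured genes of kinases, phosphatases, GTPases and related regulators, RAB27B, PTPRM and RIOK3 are described above. RAB31, a small GTPase gene of the same list, stood at 11.89 on the resistant and 10.39 on the parental array. Of 11 above background, 3 were higher and 1 lower, against 13.0% and 12.5% over all named clusters and 36.5% and 8.85% over those of the chromosome. The median was 0.22. ROCK1, a kinase of actomyosin contraction, stood at 11.75 in resistant and 12.41 in parental cells, and YES1, a SRC family kinase, at 13.17 in resistant and 12.59 in parental cells. Among 19 transcription factor genes above background, 8 were at least 2-fold higher and 3 lower, against 13.0% and 12.5% over all named clusters and 36.5% and 8.85% over those of the chromosome. The median was 0.31. TSHZ1, a homeobox and zinc finger gene of the distal long arm, stood at 9.86 in resistant and 7.86 in parental cells. Of 19 measured genes of neural and other lineages, 4 were above background, and besides NEDD4L these were DTNA, CHST9 (5.34 in resistant and 4.75 in parental cells) and MBP (6.15 in resistant and 5.46 in parental cells). Classical cadherins and laminin alpha 1 were at background on both arrays apart from CDH2.

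The distal long arm held 17 genes with smaller differences. TXNL4A, a spliceosomal protein gene, stood at 9.42 on the resistant and 7.22 on the parental array. HSBP1L1 stood at 9.04 in resistant and 7.22 in parental cells, and ADNP2, a homeobox protein gene, at 11.07 in resistant and 9.54 in parental cells. The peptidase gene CNDP2, first in that section, stood at 10.99 in resistant and 11.27 in parental cells, directly after CYB5A, whose difference was 1.79.

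By kind of transcript, 159 of 241 protein-coding clusters were above background, with 66 higher and 15 lower by 2-fold or more. Of 39 long noncoding RNA clusters, 10 were above background, with 3 higher and 1 lower. Over all named clusters of the array, 13.0% were at least 2-fold higher and 12.5% lower. LINC02864, in the middle long arm, stood at 10.09 on the resistant and 4.42 on the parental array, and LINC00470, on the short arm, at 8.62 in resistant and 4.08 in parental cells. Both were at background on the parental array. Each of the 3 small nucleolar RNA clusters was higher by less than 2-fold, by 0.47 to 0.95. The 16 miRNA clusters, which represent hairpin or precursor transcripts on this array, had values from 2.29 to 6.03 on the resistant and 2.23 to 6.49 on the parental array. Of the miRNA clusters, 2 were above background, MIR3975 at 5.59 in resistant and 6.49 in parental cells and MIR3156-2 at 6.03 on both arrays. Of the 10 clusters with several symbols, 5 were above background, with differences from -0.07 to 1.43. Of these, 1 was higher by 2-fold or more, where the share over all clusters was 10.3%.

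Genes that were at background on 1 array and at least 8-fold above the background level on the other made up a small set. On the resistant side were 6 of 192 named clusters (3.12%), against 0.386% of the named clusters of the other chromosomes. They were ME2, SMAD4, TMX3, LIPG, LINC02864 and LINC00470, and all but LINC00470 lie in the middle long arm. On the parental side were 3 (1.56%), against 0.231%, and these were DSC3, DSG3 and SERPINB13.

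Unnamed clusters leaned less to higher values than the named ones did. Of 657, 221 were above background, a share of 33.6% where it was 57.5% for the named clusters. Among these, 28 (12.7%) were at least 2-fold higher on the resistant array and 29 (13.1%) at least 2-fold lower. Over all unnamed clusters of the array, these shares were 7.95% and 13.9%, and over those of the other chromosomes 7.88% and 13.9%. The median difference was -0.06, against 0.425 for the named clusters of the chromosome and -0.19 for unnamed clusters of the other chromosomes. The sign of that median is not stable, since it was 0.01 with each array centred on its median.

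The ID numbers order the clusters in runs, which allowed some unnamed clusters to be placed. The first 2 runs were parted at the largest step back in RefSeq start. In numbers 1 to 271, the 159 placed named clusters followed the order of their RefSeq starts with a rounded Spearman correlation of 1.0. The 144 in numbers 272 to 593 had the same rounded value for that order. Numbers 998 to 1007 hold 8 placed clusters out of that order, among them SMAD4, ELAC1 and SERPINB8. Unnamed clusters in the first 2 runs were therefore assigned to a section by the named clusters on either side. In the middle long arm, 21 such unnamed clusters were above background, and 0 were at least 2-fold higher and 3 lower, with a median of -0.04, where 45 of 60 named genes were higher. On the short arm, 4 of 61 were higher and 13 lower, and on the proximal long arm 2 of 35 were higher and 4 lower. In the distal long arm 0 of 4 passed 2-fold. The shares over all unnamed clusters of the array were 7.95% higher and 13.9% lower. The largest difference of an unnamed cluster in the middle long arm was 0.83 and the lowest -2.84.

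Numbers 594 to 997 form a stretch with no named cluster, so its members could not be placed. Of its 403 clusters, 100 were above background, 22 (22.0%) were at least 2-fold higher and 9 (9.0%) lower. In the matching stretches of the other chromosomes, the longest stretch of unnamed numbers on each, these shares were 10.8% and 13.1%. Unnamed clusters between named ones had 4.96% higher and 16.5% lower on chromosome 18, against 5.15% and 14.6% on the other chromosomes. The unnamed clusters with higher values on the resistant array thus lay mostly in the stretch without named clusters, where 22 of the 28 were found. The stretch was cut into blocks of 20 numbers, and the blocks given here were picked after the values were seen. Of the clusters above background, 6 of 9 were at least 2-fold higher in numbers 714 to 733. The counts were 4 of 8 in numbers 794 to 813 and 3 of 7 in numbers 934 to 953. Such counts are small, and bunching was not tested. In numbers 834 to 853, 0 of 5 were higher and 3 lower.

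**Figure D5:**
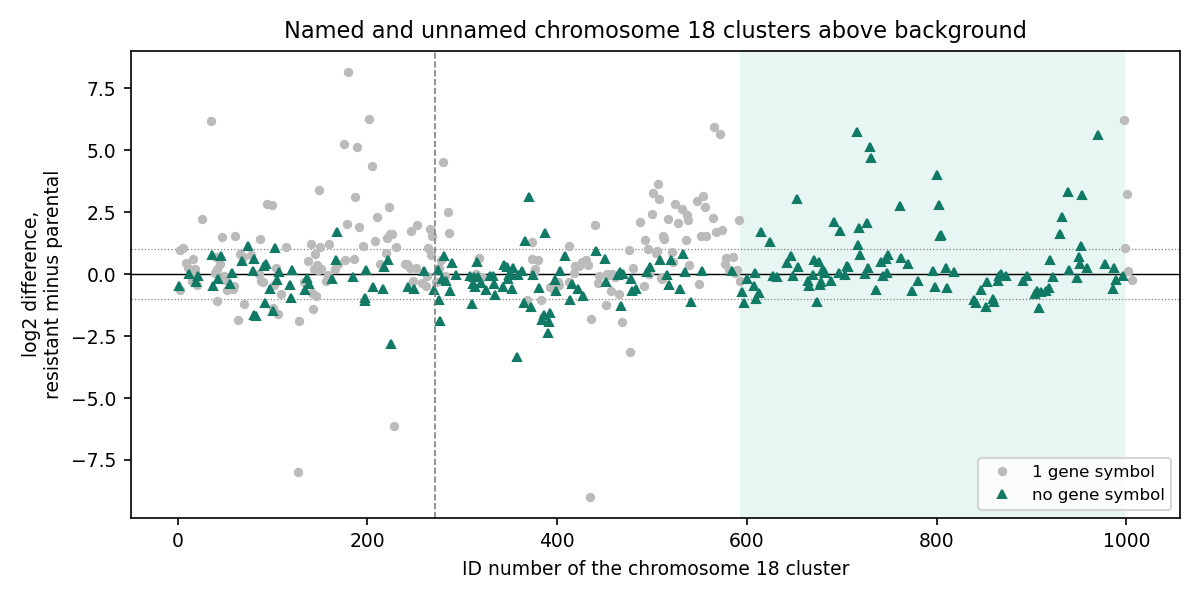
Log2 difference, resistant minus parental (vertical axis), of chromosome 18 clusters above background by ID number (horizontal axis), with named clusters in grey, unnamed clusters as green triangles, the stretch 594 to 997 shaded and a dashed line between numbers 271 and 272. Named clusters lie above the upper 2-fold line toward the end of each of the first 2 runs, and the highest triangles, up to 5.73, lie in the shaded stretch.

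The largest positive differences among unnamed clusters all came from that stretch. Cluster TC18000716 stood at 11.43 on the resistant and 5.70 on the parental array. TC18000970 stood at 10.18 in resistant and 4.58 in parental cells, TC18000730 at 9.64 in resistant and 4.52 in parental cells, and TC18000800 at 8.24 in resistant and 4.22 in parental cells, each at background on the parental array. TC18000731 stood at 11.64 in resistant and 6.96 in parental cells, and TC18000938 at 13.68 in resistant and 10.36 in parental cells. The numbers 730 and 731 follow each other. The largest negative differences came from placed clusters. TC18000358, between PIEZO2 and MPPE1, stood at 6.56 in resistant and 9.92 in parental cells. TC18000225, between PHLPP1 and SERPINB5 in a stretch of higher named genes, stood at 7.97 in resistant and 10.81 in parental cells. TC18000390 and TC18000391, adjacent between the placed CXADRP3 and POTEC, stood at 4.62 in resistant and 6.99 in parental cells and at 4.52 in resistant and 6.45 in parental cells. TC18000277, between TYMSOS and YES1, stood at 7.33 in resistant and 9.24 in parental cells, and TC18000384, between ZNF519 and CXADRP3, at 7.09 in resistant and 8.96 in parental cells. TC18000080 and TC18000386 had the same values, 7.72 on the resistant and 9.37 on the parental array.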

How the data were processed

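Total RNA of 2 cultures, both labelled FaDu, was hybridised to 1 Human Transcriptome Array 2.0 each. The deposited values are log2 expression values per transcript cluster, which the authors made with Affymetrix Expression Console per the submitters' processing notes. For its version, normalisation and genome build no source was at hand. The log scale was read from the range of the values, and both columns had nearly the same distribution, with medians of 4.72 (resistant) and 4.79 (parental). No detection calls or probe intensities were used, and the number of arrays limits the precision.

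Symbols came from a platform annotation table, updated through gene identifiers to RefSeq (GRCh38.p14), whose starts served only to order genes. On chromosome 18, 311 of 334 named clusters matched. Between 1 and 1007, 6 ID numbers are not analysed here. A gene with several clusters was placed by its brightest one. Differences were computed in Python 3.11.15 with pandas 2.3.3, and the code was tested on simulated data. Genes were named by rule: the 12 largest differences each way, the extreme windows of 10 genes, the genes from MBD1 to DCC, all SMAD and desmosomal genes, up to 4 members per gene list with the largest differences, and the 6 largest differences each way among unnamed clusters. SNORD58A, LINC02864, LINC00470, the miRNAs and further genes, among them list members of smaller difference and neighbours of named genes, were named after their values were seen. Members and lists were chosen with earlier results of these data known. Alternatives were median centring, quantile normalisation, loess, values raised to background, other filters, thresholds and windows, and left-out families.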

Additional observations from a re-analysis of the deposited data

How the results depend on the processing

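No result has a replicate check, because each group has 1 array, and dim clusters limit the folds given as bounds. Medians, counts and window values were recomputed under the alternatives that apply to each, in 89 comparisons with the deposited values, of which 70 stayed within 1.5 times or 0.1 log2 units, 16 moved further and 3 changed sign. The unnamed median, -0.06, changed sign to 0.0449 with loess, 0.01 with median centring and 0.02 with quantile normalisation. With no filter on dim clusters the named median was 0.11, the long arm median 0.15, against 0.80, the short arm median 0.06 and the lowest window -0.35. Loess gave a short arm median of 0.34. The lowest window was -1.32 with the brighter filter, -1.91 over 5 genes, -0.34 over 20 genes and -0.365 without the desmosomal cadherins and clade B serpins. At 4-fold, 37 of 192 named clusters were higher and 4 lower, against 577 and 455 of 14255 on the other chromosomes. Of 221 unnamed clusters, 14 were higher and 3 lower at 4-fold, against 388 and 550 of 16151 on the other chromosomes. At 1.5-fold, 45 unnamed clusters were higher and 53 lower, and the matching counts on the other chromosomes were not computed. The causes of these shifts were not tested beyond the construction of each alternative. The median of the middle long arm, a section chosen after the data were seen, was 0.59 with no filter, against 1.73, because 45 genes at background on both arrays entered, and lay between 1.68 and 1.86 under the other 6 alternatives run for it. Of 130 single genes, 18 moved beyond 1.5 times and 0.1 log2 units with loess and 2 with quantile normalisation. Values raised to background moved 4 and median centring 0. DTNA fell from 1.23 to 0.51 with values raised to background, and MPPE1 went from -1.04 to -0.905 with loess, inside 2-fold. Of the genes past 2-fold, 0 changed sign under these 4 alternatives. Shifts of this size could hardly reverse such a difference, so this is no check. No paired analysis was possible because each group has 1 array.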
